A study of Homo sapiens with 16 samples.

Results

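The cisplatin response of A549/cDDP cells that carried a control gapmer was measured in 4 of the 16 libraries of the series. A549/cDDP is the cisplatin-resistant derivative of A549, an established line of human lung adenocarcinoma cells. The libraries were chosen by their labels alone: 2 came from control gapmer cells in cisplatin and 2 from control gapmer cells in the drug's solvent. A gapmer is a short antisense oligonucleotide that directs RNase H to a complementary RNA, and the control gapmer stands against one aimed at the long noncoding RNA SCAT7. Of 60448 gene identifiers, the 17198 with a mean of at least 0.5 FPKM (fragments counted on a gene, scaled to its length and to the depth of the library) over the 16 libraries were tested.

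All 4 libraries came from cells seeded at 35000 per well and transfected with 12 pmol of gapmer using a lipid reagent. Drug or solvent was added after transfection for 24 h, and the cells were collected 48 h after transfection. The labels give the cisplatin concentration as 15 mM and state the same concentration for the medium in which the resistant line is maintained, so the solvent cells also have a history of drug. That unit is printed as labelled and was not checked. The other groups, also of 2 libraries each, were A549/cDDP with the SCAT7 gapmer in cisplatin and in solvent, A549/cDDP without transfection in cisplatin and in solvent, and parental A549 without transfection in cisplatin and in solvent. The labels do not say whether the 2 libraries of a group came from separate cultures, and the p-values below speak to library spread alone, which may be technical.

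Cisplatin forms crosslinks between bases of DNA, which stall replication and transcription. Damage signalling stabilises the transcription factor p53, whose target genes hold the cell cycle, assist repair or prepare apoptosis. A cycle held before mitosis is accompanied by low mRNA of genes that act in mitosis, many of which are repressed through the DREAM complex at CHR promoter elements. Bulky lesions also block RNA polymerase II within transcribed genes, and a long gene offers more places for such a block than a short one.

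Depth behind the control gapmer values was 42490000 and 42300000 fragments in cisplatin and 43140000 and 43080000 in solvent, as recovered from the low FPKM values, and 31350000 to 43140000 over the series. Replicates correlated across genes at 0.9957 in cisplatin and 0.9945 in solvent on the log2 scale. Epithelial keratins marked the cells: KRT7 averaged 3298 FPKM in cisplatin and 3551 in solvent, and KRT18 averaged 941 in cisplatin and 973 in solvent. The epithelial adhesion genes CDH1 (5.37 FPKM in cisplatin, 5.47 in solvent) and EPCAM (1.64 FPKM in cisplatin, 1.32 in solvent) were low. Of 17 lung epithelium markers, 7 passed the filter on low values, and 12 stayed under 0.5 FPKM in all 4 libraries. The lung surfactant genes SFTPB and SFTPC were under 0.1 FPKM in both groups. The summed level of all 17 was 54.321 and 55.277 FPKM in cisplatin and 52.087 and 60.862 FPKM in solvent. Of 20 markers of other lineages, 3 passed the filter on low values. The summed level of all 20 was 41.552 and 39.572 FPKM in cisplatin and 43.867 and 42.112 FPKM in solvent, mostly COL1A1, while CD3E and DCN were at 0 in all 4 libraries.

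The 2 solvent libraries differed in interferon genes, and which of them is unusual cannot be told from 2 libraries. In solvent replicate 2 all 32 genes of the interferon response were higher than in solvent replicate 1, with a median difference of 0.37 on the log2 scale, while the cisplatin replicates differed by a median of 0.01. The summed FPKM of the list was 5481.5 and 5519.5 in cisplatin, against 5715.9 and 7007.9 in solvent. Both transfected settings carried this list at a high level. With the SCAT7 gapmer the sums ran from 5473.5 to 7840.6 FPKM, and without transfection they ran from 396.57 to 402.54 FPKM in A549/cDDP. The main counts below are also given without solvent replicate 2.

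Cisplatin changed 435 of the 17198 genes tested in control gapmer cells, 2.53% of them, with 288 higher (1.67%) and 147 lower (0.855%). These calls come from limma on log2(FPKM + 0.5) with Benjamini-Hochberg adjustment over all genes tested and a threshold of 0.05, and the words rose, fell, higher and lower below refer to genes past it. The changes were small: 6 genes rose and 5 fell at least 2-fold, and 52 rose and 26 fell at least 1.5-fold. The median over all genes was 0.0201 on the log2 scale. Scaling moved the balance of directions: median ratio scaling gave 190 rises and 171 falls, and quantile normalization gave 229 rises and 159 falls. Leaving out any 1 of the 4 libraries lowered the count, to 140 without solvent replicate 2, of which 133 were among the 435.

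Among the 25 lists, chosen with earlier results of these data known, genes that cells raise after DNA damage had the largest median rise. Of 32 such genes tested, 28 rose and 0 fell (beside 1.67% and 0.855% of all genes). The median log2 change was 0.452 beside 0.0201 over all genes, and cisplatin and solvent libraries did not overlap for any of the 32. Groups did not overlap for 50.2% of all genes tested. They include the brake of the cell cycle CDKN1A, the p53 antagonists MDM2 and PPM1D, the sestrins SESN1 and SESN2, the repair genes DDB2, XPC, POLH and RRM2B, and the death genes BBC3, BAX and FAS. The 4 that did not pass were GADD45A (0.35), TP53I3 (0.29), PMAIP1 (0.31) and TNFRSF10C (0.22, all log2 changes). Without solvent replicate 2, 23 of the 32 passed.

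CDKN1A (ENSG00000124762, chromosome 6, 36676460 to 36687339 on hg38), which encodes the cyclin-dependent kinase inhibitor p21, stood at 447 and 449 FPKM in cisplatin, against 266 and 269 FPKM in solvent. Replicates differed by far less than the groups, and the log2 change was 0.74 ± 0.027 (SE; limma adjusted p = 3.12e-08). FDXR (ENSG00000161513, chromosome 17, 74862497 to 74873031), the reductase that feeds electrons to mitochondrial steroid and iron-sulfur enzymes, had 184 and 180 FPKM in cisplatin and 91.9 and 89.4 in solvent. Its log2 change was 1.003 ± 0.030 (SE; limma adjusted p = 7.45e-09), the largest of the list. GDF15 (ENSG00000130513), a secreted stress cytokine of the TGF-beta family, had 134 FPKM in both cisplatin libraries, against 69.4 and 66.2 in solvent. BTG2, an antiproliferative cofactor of mRNA deadenylation, had 25.6 and 25.5 FPKM in cisplatin and 13.1 in both solvent libraries. Cisplatin and solvent libraries were well apart in each of these genes.

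The genes that restrain p53 also rose. MDM2 (ENSG00000135679, chromosome 12, 68808176 to 68850686), the ubiquitin ligase that targets p53 for degradation, had 248 and 273 FPKM in cisplatin, against 165 and 171 in solvent (log2 change 0.63 ± 0.066 SE; limma adjusted p = 2.89e-04). PPM1D, a phosphatase that switches off damage signalling, had 34.3 and 34.8 FPKM in cisplatin and 19.9 and 18.1 FPKM in solvent. CDKN1A, FDXR, GDF15, BTG2, PPM1D and MDM2 each passed with any 1 of the 4 libraries left out.

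**Figure D1:**
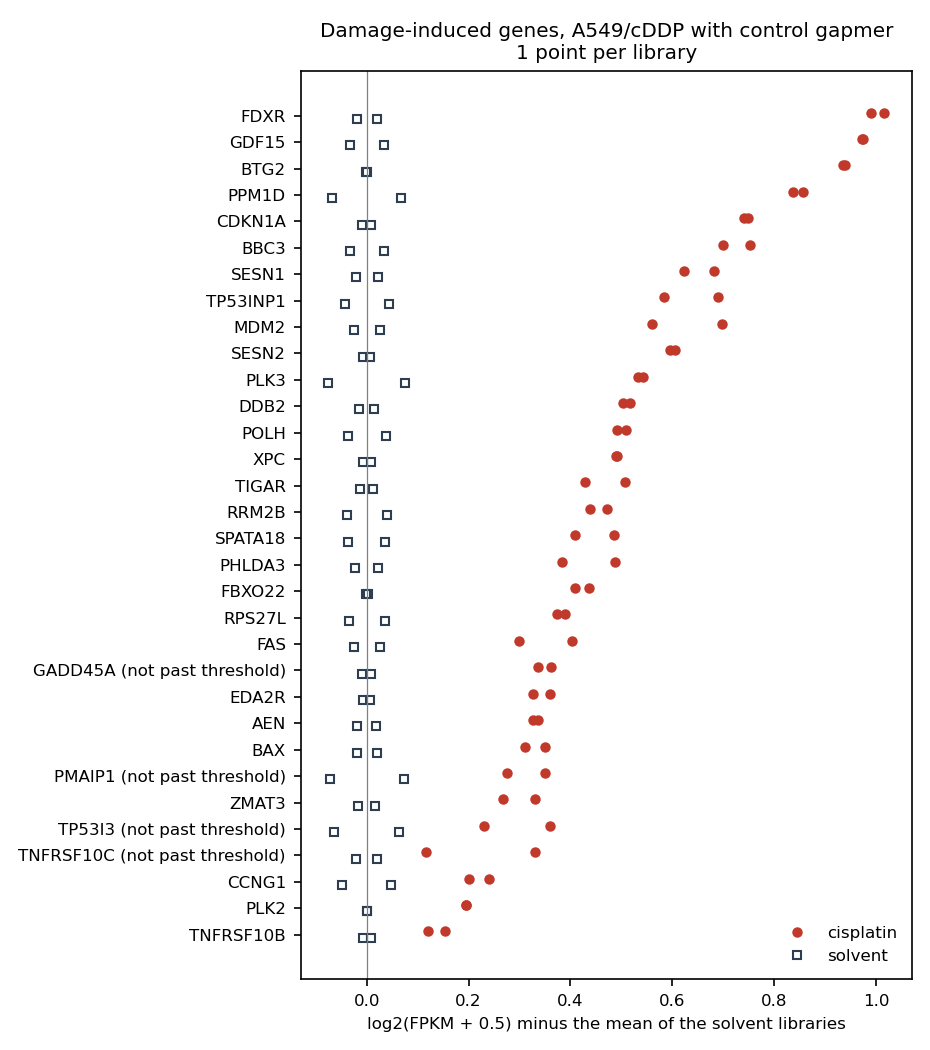
Damage-induced genes in A549/cDDP with control gapmer, 1 row per gene. The x axis gives log2(FPKM + 0.5) minus the mean of both solvent libraries, with filled red circles for the 2 cisplatin libraries and open squares for the 2 solvent libraries. In all 32 rows the circles lie right of the squares, from TNFRSF10B at a mean of 0.14 to FDXR at 1.003.

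Excision repair and apoptosis lists changed in the members they share with the damage response and in few others. The counts stand beside 1.67% of all genes higher and 0.855% lower. Of 23 nucleotide excision repair genes tested 2 rose: DDB2, a sensor of helix-distorting lesions (178 and 179 FPKM in cisplatin, 127 and 124 in solvent), and XPC, which recognises damage across the genome (101 FPKM in both cisplatin libraries, 71.4 and 72.2 in solvent). The list had a median log2 change of 0.017, close to that of all genes. Of 25 apoptosis regulators 4 rose and 0 fell. BBC3, which encodes the BH3-only protein PUMA, had 28.91 and 30.01 FPKM in cisplatin and 17.21 and 18.04 in solvent. BAX, the pore-forming effector, rose by 0.33 on the log2 scale, the apoptosome gene APAF1 by 0.27, and BCL2L1, which gives the antiapoptotic protein BCL-XL in its long form, by 0.25. DDB2, XPC, BBC3, BAX and BCL2L1 passed with any 1 library left out, whereas APAF1 passed in none of those 4 fits. XPC shares 20832 bp with its antisense gene XPC-AS1 (log2 change 0.459), so their reads are uncertain.

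Few crosslink repair and replication genes passed, in counts that stand beside 1.67% of all genes higher and 0.855% lower. Among 30 genes of the Fanconi anaemia and homologous recombination pathways 1 rose and 0 fell, with a median log2 change of -0.009. The riser was RAD51C, a gene of homologous recombination, at 72.1 and 74.4 FPKM in cisplatin and 63.6 and 61.6 in solvent. Of 34 replication and S phase genes 1 rose and 2 fell (median -0.076), and 25 changes were negative, beside 42.5% of all genes. At an unadjusted p under 0.05 in limma there were 9 of the 34, beside 14.0% of all genes. PCNA, the sliding clamp and also a p53 target, rose by 0.23 (271 and 275 FPKM in cisplatin, 234 and 231 in solvent). MCM6 and MCM5, subunits of the replicative helicase, fell by 0.40 and 0.24 on the log2 scale. MCM6 had 44.6 and 46.4 FPKM in cisplatin, against 60.4 and 60.0 in solvent, and passed with any 1 library left out, while MCM5, PCNA and RAD51C each lost the call in all 4 of those fits.

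Of 30 mitosis genes tested, 12 fell and 0 rose (beside 0.855% and 1.67% of all genes), with a median of -0.298. The 18 others had negative changes that did not pass. KIF20A, a kinesin of the late spindle, stood at 27.3 and 26.6 FPKM in cisplatin, against 42.0 and 42.3 in solvent (log2 change -0.63 ± 0.092 SE; limma adjusted p = 0.00306). PLK1 (ENSG00000166851, chromosome 16, 23677656 to 23690367), the kinase that drives entry into mitosis, had 73.4 and 72.2 FPKM in cisplatin, against 111 and 106 in solvent (-0.57 ± 0.043 SE; limma adjusted p = 2.85e-05). In both genes the cisplatin libraries lie well below the solvent libraries. CENPE, a kinetochore motor, had 7.60 and 8.14 FPKM in cisplatin and 11.4 and 11.6 in solvent, and CDC20, the activator of the anaphase-promoting complex, had 69.7 and 70.2 in cisplatin and 98.2 and 98.5 in solvent. The other 8 that fell were ASPM, HMMR, MKI67, CENPA, CCNB1, CCNB2, BUB1 and KIF11, between -0.43 and -0.34. The count is sensitive to single libraries: 2 or 3 members passed when 1 of the 4 libraries was left out, 2 of them without solvent replicate 2, although the list's median stayed between -0.321 and -0.299. In bulk RNA a smaller share of cells in mitosis and less mRNA per mitotic cell cannot be told apart.

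The promoters of the mitosis genes share letters that the choice of the list did not use. RefSeq promoters on GRCh38.p14, from 250 bases before to 50 after the gene start, were at hand for 25 of the 30, including all 12 that fell. The CHR element TTTGAA and the CCAAT box, searched on both strands, occurred together in 8 of the 12 (66.7%) and in 16 of the 25 (64%). They occurred together in 6.08% of the 27305 promoters tabulated, and in 4.05% of those of genes tested here. The promoters of PLK1, CDC20 and HMMR are shown because they hold both sets of letters, in capitals, in one stretch; all 3 are on the plus strand, at chr16:23678639-23678938, chr1:43358731-43359030 and chr5:163460382-163460681.
PLK1: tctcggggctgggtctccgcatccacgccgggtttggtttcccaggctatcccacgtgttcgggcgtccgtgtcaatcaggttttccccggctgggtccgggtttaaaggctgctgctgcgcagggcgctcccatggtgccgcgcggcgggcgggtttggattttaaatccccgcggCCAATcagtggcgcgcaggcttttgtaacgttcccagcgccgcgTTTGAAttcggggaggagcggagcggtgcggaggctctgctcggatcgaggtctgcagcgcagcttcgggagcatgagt
CDC20: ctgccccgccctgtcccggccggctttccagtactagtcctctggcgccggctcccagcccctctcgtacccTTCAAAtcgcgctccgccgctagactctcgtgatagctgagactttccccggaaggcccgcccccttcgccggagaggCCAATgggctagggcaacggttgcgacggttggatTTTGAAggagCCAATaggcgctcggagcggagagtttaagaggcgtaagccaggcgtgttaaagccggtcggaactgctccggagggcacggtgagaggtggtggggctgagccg
HMMR: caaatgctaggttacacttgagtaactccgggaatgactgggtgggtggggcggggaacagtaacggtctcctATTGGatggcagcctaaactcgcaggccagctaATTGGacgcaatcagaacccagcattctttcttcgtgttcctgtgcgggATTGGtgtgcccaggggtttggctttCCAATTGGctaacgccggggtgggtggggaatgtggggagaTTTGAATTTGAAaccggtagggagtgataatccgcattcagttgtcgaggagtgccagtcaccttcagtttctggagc
KIF20A, CCNB1 and BUB1 hold CCAAT boxes without the CHR letters in this window, and CENPE holds neither.

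Promoters of the damage-induced genes were searched in the same window. Of 25 with a promoter in the table, 13 held the CCAAT box (52%, beside 36.2% of those of genes tested). The CHR element was in 1 (4%, beside 9.6%). Both together were in 0, beside 4.05% of those of genes tested, and 25 promoters are too few to set 0 apart from that share. A p53 consensus was found in 1. The search took 2 adjoining elements of 10 bases without a spacer, each with an exact core of 4 bases. At most 2 mismatches were allowed over all 20 bases, and sites outside this window were not searched. That consensus is in 0.15% of all promoters tabulated. The promoter with the match belongs to AEN, a nuclease gene that rose by 0.33 (109 FPKM in both cisplatin libraries, 85.3 and 87.5 in solvent), and lies on the plus strand at chr15:88621090-88621389, with the 20 matched bases in capitals.
AEN: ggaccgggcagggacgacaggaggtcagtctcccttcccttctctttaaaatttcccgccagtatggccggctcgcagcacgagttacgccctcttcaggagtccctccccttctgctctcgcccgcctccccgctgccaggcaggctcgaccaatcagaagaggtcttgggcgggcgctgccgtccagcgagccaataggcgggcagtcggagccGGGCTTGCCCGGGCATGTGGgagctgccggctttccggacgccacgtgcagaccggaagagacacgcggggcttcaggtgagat
A match of letters is a description of the sequence, and binding was not measured.

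Long genes carried a large share of the falls. Of 491 tested genes that span 300 kb or more, 54 fell (10.998%, beside 0.855% of all genes) and 3 rose, with a median of -0.12 and a negative change in 79.226% of them. Of 5210 genes under 10 kb 12 fell (0.23%) and 83 rose (1.593%, beside 1.67% of all genes), with a median of 0.058. The medians between these bins were 0.035 at 10 to 30 kb, 0.008 at 30 to 100 kb and -0.02 at 100 to 300 kb, so the change declined from bin to bin. With 1 library left out, 13 to 17 of the 491 fell, 13 of them without solvent replicate 2, and the median stayed between -0.136 and -0.108. The 3 long genes that rose were ASTN2 (7.87 and 8.13 FPKM in cisplatin, 4.93 and 4.39 in solvent), CASK and GNAI1, named because they are the exceptions.

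**Figure D2:**
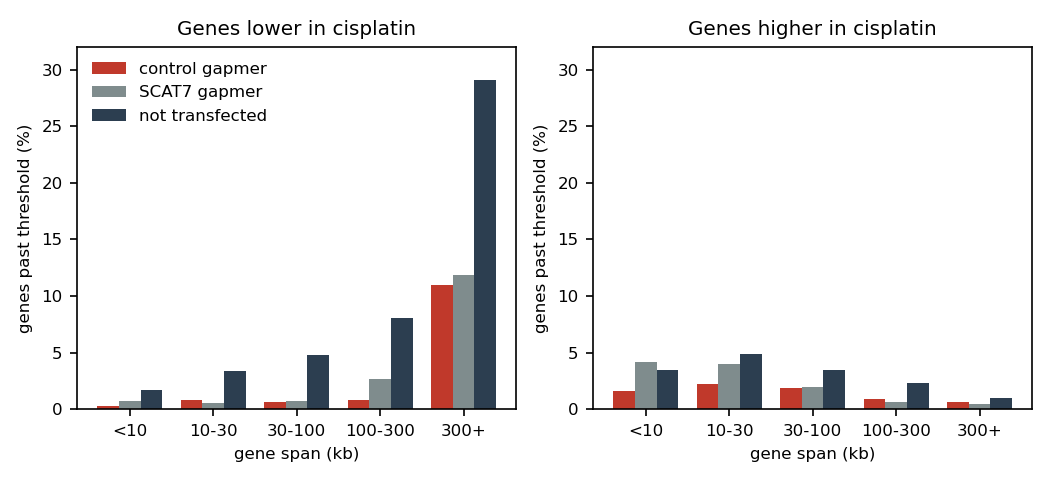
Share of tested genes past the threshold, lower in cisplatin (left) and higher in cisplatin (right), by gene span in kb, for A549/cDDP with control gapmer, with SCAT7 gapmer and not transfected. Bars start at 0; with control gapmer the share of genes lower is 0.23% under 10 kb and 10.998% at 300 kb and over.

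The largest falls among genes with at least 5 FPKM in the higher group were nearly all long genes. GPC6 (ENSG00000183098, chromosome 13, 93226842 to 94407401), a cell-surface heparan sulfate proteoglycan, had 2.85 and 2.29 FPKM in cisplatin, against 6.65 and 6.79 in solvent (log2 change -1.24 ± 0.144 SE; limma adjusted p = 6.33e-04). SLIT3 (chromosome 5, 168661733 to 169301129), a secreted guidance protein, had 4.93 and 4.58 FPKM in cisplatin and 10.5 and 10.4 in solvent (-1.06). SPOCK1, a testican proteoglycan of 623.1 kb, had 41.8 and 41.5 FPKM in cisplatin, against 69.4 and 72.6 in solvent (-0.76). In these genes both cisplatin libraries lay well below both solvent libraries. IMMP2L (-0.93), CPQ (-0.82), SORCS2 (-0.79), GMDS (-0.77), DPYD (-0.72), MSRA (-0.67), TRAPPC9 (-0.66) and the tumour suppressor WWOX (-0.66), all of 374.6 kb or more, complete this group. GPC6, SLIT3, SPOCK1, SORCS2 and WWOX passed with any 1 library left out, and IMMP2L, CPQ, DPYD and TRAPPC9 in none of those fits. Among weaker genes CDH4, a cadherin of 688.2 kb named after its values were seen, had 0.813 and 0.845 FPKM in cisplatin and 3.64 and 3.79 in solvent (log2 change -1.66).

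PIF1, the short gene among the 12 largest falls, encodes a DNA helicase that acts at telomeres and on stalled forks and spans 10.0 kb. It had 7.39 and 7.92 FPKM in cisplatin, against 15.8 and 16.7 in solvent (log2 change -1.04 ± 0.085 SE; limma adjusted p = 4.8e-05). Its level in cisplatin was below that of either solvent library by a wide margin, and the call held with any 1 library left out.

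The largest rises included damage genes and several genes outside that list. GRIN2C (ENSG00000161509, chromosome 17, 74842023 to 74861504), a glutamate receptor subunit, led with 17.1 and 17.8 FPKM in cisplatin, against 7.68 and 7.29 in solvent (log2 change 1.17 ± 0.084 SE; limma adjusted p = 1.84e-05). GRIN2C and FDXR are neighbours on the minus strand of chromosome 17, with FDXR upstream of GRIN2C, so reads that run past the end of FDXR cannot be told from reads of GRIN2C here. INKA2, an inhibitor of the kinase PAK4, had 9.97 and 8.70 FPKM in cisplatin and 4.17 and 4.16 in solvent. CYGB, which encodes cytoglobin, rose by 0.85, and ARVCF, a catenin of cell junctions, by 0.77. GRIN2C and INKA2 passed with any 1 library left out, ARVCF in 2 and CYGB in 1 of those 4 fits.

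Of 839 lincRNA genes tested 10 rose (1.19%), of 1500 antisense genes 8 rose (0.533%), both shares below the 1.67% of all genes, and 0 of either kind fell. PURPL, a long noncoding RNA known as a p53-induced suppressor of p53, had 105 and 111 FPKM in cisplatin, against 80.2 and 80.8 in solvent, and rose by 0.42. TP53TG1, another p53-regulated noncoding RNA, rose by 0.44, and PINCR, a p53-induced RNA with a role in arrest, rose by 0.53 (2.86 and 2.85 FPKM in cisplatin, 1.95 and 1.71 in solvent); these 3 were named after their values were seen. GAS6-AS1, an antisense transcript in GAS6, had 10.6 and 9.54 FPKM in cisplatin and 5.58 and 5.59 in solvent. Whether counting used the strand is not given in the sources used here, so antisense rises are uncertain where the partner rose: ENSG00000257181 (0.93) lies within MDM2 (0.63) and ENSG00000265840 (0.99) shares 349 bp with TRAF4 (0.43, log2 changes). ENSG00000257181 lost its call with any 1 library left out, and ENSG00000265840 kept it in 1 of those 4 fits. The partner of GAS6-AS1 stood near 0 (-0.01), and GAS6-AS1 passed with any 1 library left out.

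**Figure D3:**
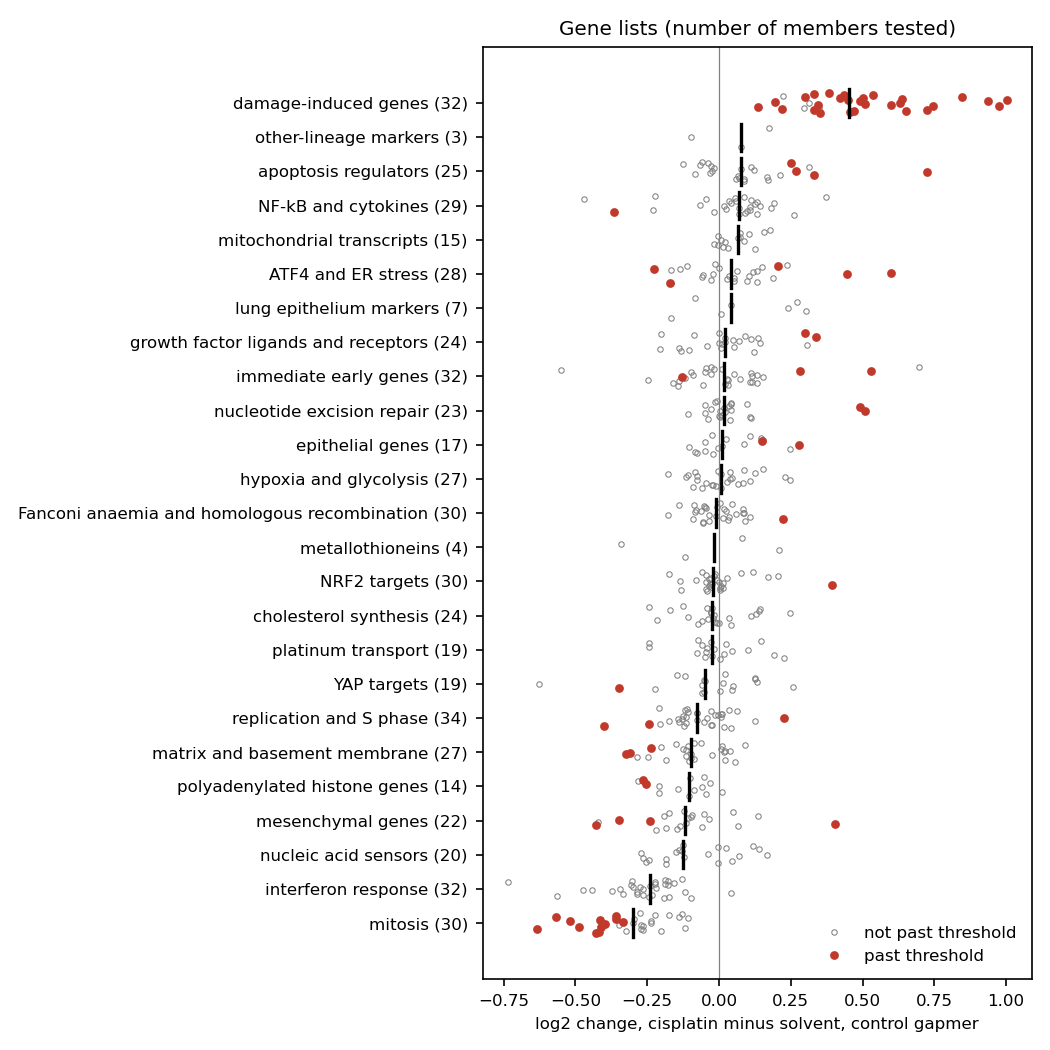
Log2 change (cisplatin minus solvent, control gapmer) of each tested member of the 25 gene lists, 1 row per list with the number tested in brackets. Filled red points passed the threshold, open grey points did not, and black bars are list medians, from 0.452 for damage-induced genes to -0.298 for mitosis.

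Stress lists outside the damage response changed in few members, beside 1.67% of all genes higher and 0.855% lower. Of 28 genes of ATF4 signalling and endoplasmic reticulum stress 3 rose and 2 fell. The leucine sensor SESN2, which is on the damage list too, had 15.91 and 16.03 FPKM in cisplatin, against 10.4 and 10.3 in solvent, while the glutathione-degrading enzyme CHAC1 rose by 0.45 and the transcription factor CEBPB by 0.20. The chaperones HSP90B1 (-0.23) and HSPA5 fell. Of 30 NRF2 targets 1 rose: ALDH3A1, an aldehyde dehydrogenase, stood at 3697 and 3525 FPKM in cisplatin and 2829 and 2671 in solvent. Of 32 immediate early genes ATF3 (0.53) and IER5 (0.28) rose and MYC fell by 0.13, and FOS, with 3.27 and 2.31 FPKM in cisplatin and 3.75 and 4.85 in solvent, did not pass (limma adjusted p = 0.196). ALDH3A1 and SESN2 passed with any 1 library left out, CEBPB in 1 of the 4 fits, and CHAC1, HSP90B1, ATF3, IER5 and MYC in none.

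Genes of drug handling did not pass. None of 19 platinum transport genes and none of 4 metallothioneins tested was past the threshold in limma. At an unadjusted p under 0.05 there were 3 of 19 and 0 of 4, beside 14.0% of all genes. With no filter, with a mean of at least 2 FPKM or with median ratio scaling 1 platinum transport gene was lower. The copper and platinum list ran from -0.245 to 0.225 on the log2 scale with a median of -0.024. MT2A, the abundant metallothionein, had 491 and 525 FPKM in cisplatin, against 532 and 572 in solvent.

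Of 22 mesenchymal genes 3 fell and 1 rose (median -0.119), and 18 changes were negative, beside 42.5% of all genes. For this and the next lists, 0.855% of all genes fell and 1.67% rose. Those that fell included TGFBI (-0.35) and FN1, fibronectin (-0.24), and ACTA2, smooth muscle actin, rose by 0.40. ACTA2 overlaps the damage gene FAS on the opposite strand by 758 bp. Of 27 matrix genes the collagens COL5A1 (-0.33), COL4A2 (-0.31) and COL18A1 (-0.24) fell and 0 rose. Of 19 YAP targets CCN2 alone passed, and it fell by 0.35 (16.40 and 16.04 FPKM in cisplatin, 21.3 and 20.3 in solvent). Of 29 NF-kB and cytokine genes the cytokine IL11 alone passed, and it fell by 0.37. Of 14 polyadenylated histone genes H1-10 and H2BC12 fell by 0.25 and 0.26 and 0 rose, and of 24 growth factor ligands and receptors TGFA and PDGFA rose by 0.34 and 0.30 and 0 fell. TGFA held its call with any 1 library left out, COL4A2 in 3 of 4 such fits, IL11 in 2, COL18A1, ACTA2 and PDGFA in 1, and TGFBI, FN1, COL5A1, CCN2, H1-10 and H2BC12 in none.

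No member passed in limma in 6 further lists. Those at an unadjusted p under 0.05, beside 14.0% of all genes (2400 of 17198), were 5 of 32 interferon response genes, 4 of 20 nucleic acid sensors, 5 of 24 cholesterol synthesis genes, 4 of 27 hypoxia and glycolysis genes, 0 of 15 mitochondrial transcripts and 1 of 7 lung epithelium markers. The interferon list had a median of -0.241 with 31 of 32 changes negative. OAS2, a sensor of double-stranded RNA, shows the spread behind it: 50.1 and 50.6 FPKM in cisplatin, against 58.9 and 94.6 in solvent, with the high value in solvent replicate 2 (limma adjusted p = 0.29). The mitochondrial transcripts had a median of 0.066.

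The target of the SCAT7 gapmer did not pass in control gapmer cells. ELF3-AS1 (ENSG00000234678, chromosome 1, 201995696 to 202010463), for which RefSeq gives SCAT7 as another name, had 3.73 and 3.23 FPKM in cisplatin and 2.56 and 3.57 in solvent, so the groups overlap (log2 change 0.17; limma adjusted p = 0.724). ELF3 (202007945 to 202017188 on chromosome 1), an epithelial transcription factor, had 46.4 and 44.0 FPKM in cisplatin, against 37.6 and 36.7 in solvent, a rise of 0.28 (limma adjusted p = 0.0264) that was lost with any 1 library left out. Over 2519 bp ELF3 and ELF3-AS1 lie on opposite strands of the same bases, where reads cannot be assigned. KRT19, the other epithelial gene of 17 tested that rose, changed by 0.15 and lost its call with any 1 library left out. The topoisomerase gene TOP1 (49.2 and 49.4 FPKM in cisplatin, 46.8 and 48.0 in solvent) and the RNA-binding protein genes HNRNPK (466 in both cisplatin libraries, 482 and 484 in solvent) and YBX1 (494 and 485 in cisplatin, 488 and 466 in solvent) did not pass, with limma adjusted p = 0.631, 0.665 and 0.762.

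Untransfected A549/cDDP cells show how the same line responded without transfection. Without transfection 1393 genes (8.1%) passed, 611 higher (3.55%) and 782 lower (4.55%). The difference between the cisplatin effects, tested in the same fit, passed for 324 genes (1.88%). Control gapmer cells had the higher effect for 197 of these and the lower effect for 127, a balance that became 132 and 181 with median ratio scaling. The comparisons share no library. Of the 288 genes that rose with control gapmer 77 also rose without transfection (26.7% of 288 and 12.6% of 611) and 11 fell, and of the 147 that fell 82 also fell (55.8% of 147 and 10.5% of 782) and 9 rose. Across the 17198 genes the correlation of the log2 changes was 0.105, where genes are not independent replicates. Leaving out 1 control gapmer library lowered the 324 to between 110 and 131, and to 122 without solvent replicate 2.

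A part of the damage-induced genes had a larger cisplatin effect with the control gapmer. Of the 32, 12 had a higher effect than in untransfected cells and 0 a lower one, beside 1.15% of all genes with a higher effect, and the median was 0.452 with control gapmer and 0.148 without transfection. For CDKN1A the difference of the log2 effects was 0.45 ± 0.038 (SE; limma adjusted p = 2.23e-04), and for FDXR 0.86 ± 0.042 (limma adjusted p = 2.62e-06). The solvent levels differed as well, and they stand beside this result untested. CDKN1A had 447 and 449 FPKM in cisplatin and 266 and 269 in solvent with the control gapmer, whereas without transfection it had 708 and 711 in cisplatin and 580 and 573 in solvent. The summed FPKM of the list was 3940.4 and 3931.4 in cisplatin and 2898.4 and 2874.8 in solvent with the control gapmer, against 4906.1 and 4933.7 in cisplatin and 4316.9 and 4358.1 in solvent without transfection. Control gapmer cells thus had lower sums in both conditions.

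For mitosis the order of the solvent levels was the reverse. The summed FPKM of the 30 mitosis genes was 1981.8 and 1991.1 in cisplatin and 2455.5 and 2416.1 in solvent with the control gapmer, against 930.5 and 854.87 in cisplatin and 1303.5 and 1315.8 in solvent without transfection. Members fell in both settings, with 12 of 30 lower with control gapmer (beside 0.855% of all genes) and 29 of 30 without transfection (beside 4.55%). The difference of effects passed for 0 of the 30 in limma, and 12 were at an unadjusted p under 0.05, beside 14.9% of all genes. PLK1 changed by -0.57 with control gapmer and -0.65 without transfection. Fanconi anaemia and homologous recombination genes did differ: 17 of 30 fell without transfection (beside 4.55% of all genes) and 0 with control gapmer (beside 0.855%). The difference passed for 7 of 30, all with a higher effect in control gapmer cells (beside 1.15% of all genes).

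**Figure D4:**
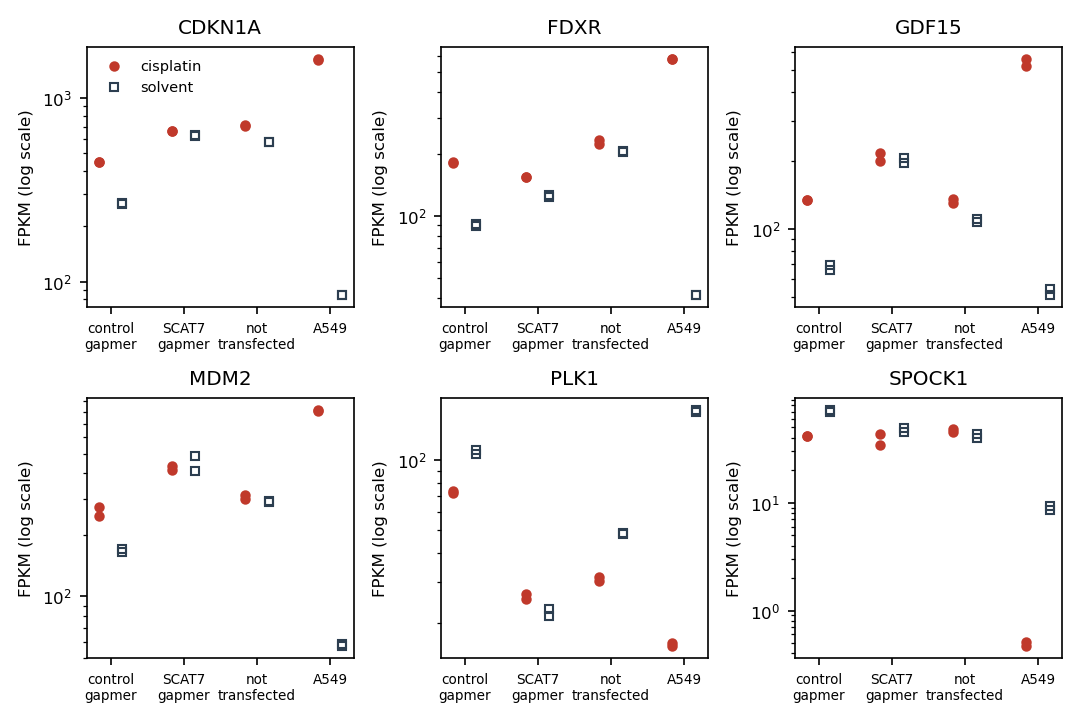
FPKM per library on a log axis for CDKN1A, FDXR, GDF15, MDM2, PLK1 and SPOCK1 in A549/cDDP with control gapmer, with SCAT7 gapmer and not transfected, and in A549, with cisplatin (filled circles) left of solvent (open squares) in each setting. With control gapmer, CDKN1A lies at 447 and 449 in cisplatin and 266 and 269 in solvent, and PLK1 at 73.4 and 72.2 in cisplatin and 111 and 106 in solvent.

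A group of 20 genes passed in both settings in opposite directions, and the difference passed for each of the 20. Genes that fell with control gapmer and rose without transfection included CCN2 (-0.35 and 0.51), IL11 (-0.37 and 0.40), TPM1, a tropomyosin (-0.23 and 0.31), and the chemokine receptor gene ACKR3 (-0.55 and 0.77). CCN2 had 14.5 and 14.7 FPKM in cisplatin, against 9.69 and 10.5 in solvent, without transfection. Genes that rose with control gapmer and fell without transfection included ELF3 (0.28 and -0.44), the nucleotide pool sanitizer NUDT1 (0.33 and -0.34), KRT19 (0.15 and -0.14) and HOXC13 (0.49 and -0.37). TPM1, ACKR3, NUDT1 and HOXC13 were named after their values were seen. ELF3 had 28.001 and 25.12 FPKM in cisplatin, against 37.0 and 35.2 in solvent, without transfection.

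FOS, a subunit of AP-1, had 8.66 and 5.56 FPKM in cisplatin, against 0.593 and 0.692 in solvent, without transfection, and the difference of its effects, control gapmer minus no transfection, was -3.26 on the log2 scale, the lowest among genes named by rule (limma adjusted p = 2.23e-04). EGR1 had 4.66 and 3.29 FPKM in cisplatin and 3.58 and 5.48 in solvent with the control gapmer, against 3.83 and 2.99 in cisplatin and 0.395 and 0.393 in solvent without transfection. The solvent level of both genes was higher in control gapmer cells than in untransfected cells. Of the 32 immediate early genes 13 rose without transfection (beside 3.55% of all genes) and 2 with control gapmer (beside 1.67%). The effect was lower with control gapmer for 4 of the 32 (beside 0.738%). TRIM31, an E3 ligase gene, and LCN2, a siderophore-binding protein gene, fell without transfection (-1.27 and -1.17) and had log2 changes of 0.26 and 0.04 with control gapmer that did not pass.

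The SCAT7 gapmer libraries ask how knockdown of SCAT7 alters the drug response, and the control gapmer response is the one they are set against in the design. With the SCAT7 gapmer 719 genes (4.18%) passed, 502 higher (2.92%) and 217 lower (1.26%), and the difference of effects passed for 160 (0.93%), of which control gapmer cells had the higher effect in 76 and the lower in 84. This count depended strongly on which libraries shared the fit: 10 genes passed when the model held only the 8 libraries compared, and 262 with no filter on low values. Leaving out 1 control gapmer library left 45 to 70, and 52 without solvent replicate 2. Of the 32 damage-induced genes 18 had a higher effect with control gapmer and 0 a lower one (beside 0.442% of all genes higher), and of the 30 mitosis genes 20 had a lower effect (beside 0.488%). Most of these calls cannot hold in the fit of only the 8 libraries compared, where 10 genes passed in all. The difference was positive for 31 of the 32 damage-induced genes and negative for all 30 mitosis genes.

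The mitosis genes moved in opposite directions under the 2 gapmers. With control gapmer 12 fell (beside 0.855% of all genes) and 0 rose (median -0.298). With SCAT7 gapmer 13 rose (beside 2.92%) and 0 fell (median 0.332). KIF20A had 27.3 and 26.6 FPKM in cisplatin and 42.0 and 42.3 in solvent with the control gapmer, against 6.03 and 7.71 in cisplatin and 4.22 and 5.11 in solvent with the SCAT7 gapmer, and its effect differed by -1.14 (limma adjusted p = 0.00271). PLK1 had 25.3 and 26.4 FPKM in cisplatin, against 21.3 and 22.9 in solvent, with the SCAT7 gapmer, and its effect differed by -0.79 (limma adjusted p = 1.32e-04). The solvent level of both genes was several times higher with the control gapmer than with the SCAT7 gapmer. GTSE1, a mitotic regulator of p53, and CDKN2C, an inhibitor of CDK4 and CDK6, had lower effects with control gapmer too, with differences of -0.93 and -0.85 on the log2 scale.

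Damage genes with control gapmer exceeded those with SCAT7 gapmer in effect but not in level. GDF15 had 134 FPKM in both cisplatin libraries, against 69.4 and 66.2 in solvent, with the control gapmer, and 199 and 215 in cisplatin, against 206 and 195 in solvent, with the SCAT7 gapmer (difference of effects 0.93; limma adjusted p = 1.5e-04). MDM2 had 432 and 417 FPKM in cisplatin, against 484 and 411 in solvent, with the SCAT7 gapmer, and did not pass there (log2 change -0.07), while its effect with control gapmer was higher by 0.70. The summed FPKM of the 32 damage-induced genes was 3940.4 and 3931.4 in cisplatin and 2898.4 and 2874.8 in solvent with the control gapmer, against 5226.2 and 4810.5 in cisplatin and 4888.3 and 4607.8 in solvent with the SCAT7 gapmer. Depth differed between these settings as well, with 42300000 to 43140000 fragments for control gapmer and 31350000 to 33400000 for SCAT7 gapmer, and its part was not tested.

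**Figure D5:**
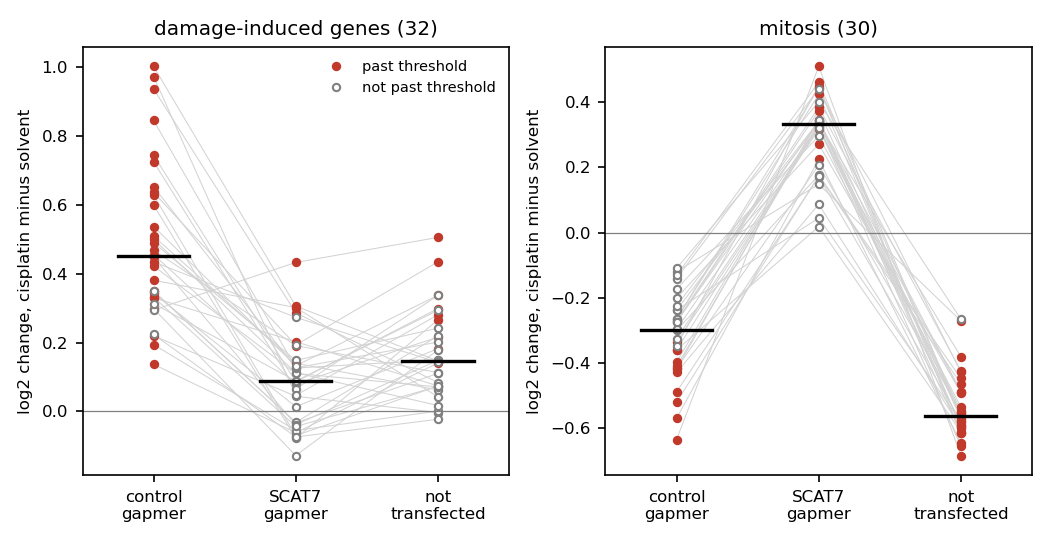
Log2 change (cisplatin minus solvent) of each damage-induced gene (left, 32 genes) and each mitosis gene (right, 30 genes) in A549/cDDP with control gapmer, with SCAT7 gapmer and not transfected; grey lines join a gene, filled points passed the threshold and black bars are medians. Damage medians are 0.452, 0.087 and 0.148, and mitosis medians are -0.298, 0.332 and -0.562, in that order.

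The fall of long genes was shared by the 3 settings of the resistant line. Over all genes 0.855% fell with control gapmer, 1.26% with SCAT7 gapmer and 4.55% without transfection. At 300 kb and over 54 genes fell with control gapmer (10.998%), 58 with SCAT7 gapmer (11.813%) and 143 without transfection (29.124%), with medians of -0.12, -0.177 and -0.19. SPOCK1 was an exception in untransfected cells, where it had 45.4 and 48.1 FPKM in cisplatin, against 43.0 and 40.0 in solvent. Its effect was lower by 0.93 with the control gapmer (limma adjusted p = 0.00291).

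Parental A549 cells responded far more strongly to the same labelled drug exposure. There 10393 genes (60.4%) passed, 5729 higher (33.3%) and 4664 lower (27.1%), and the effect differed from that of control gapmer cells for 7789 genes (45.3%), a comparison in which line and transfection differ together and cannot be told apart. Of the 288 genes that rose with control gapmer 273 also rose in A549 (94.8% of 288 and 4.77% of 5729), and of the 147 that fell 142 also fell (96.6% of 147 and 3.04% of 4664). The median log2 change of the 288 was 0.346 with control gapmer and 1.651 in A549. CDKN1A had 1636 and 1611 FPKM in cisplatin, against 84.1 and 84.3 in solvent, in A549, and its effect with control gapmer was lower by 3.52 (limma adjusted p = 4.47e-14). All 32 damage-induced genes had a lower effect in control gapmer cells than in A549, beside 23.9% of all genes, and 29 of 30 mitosis genes a higher, less negative one, beside 21.4%.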

How the data were processed

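Per the labels' protocols, poly(A) RNA of the 16 libraries was enriched with oligo(dT) beads, and per the submitters' processing notes TopHat2, HTSeq 0.6.1 and hg38 were used; the annotation release and strand setting are not given in the sources used here. The authors deposited FPKM values per gene, and no read counts were used. Depth was recovered from low FPKM values and GENCODE 29 exon lengths, with 73.2 to 73.7% of low values within 0.02 of a whole read in the control gapmer libraries, too few for a count test.

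Groups came from the labels. log2(FPKM + 0.5) was fitted with limma 3.58.1 (R 4.3.3) in 1 model of 8 groups, 8 residual degrees of freedom, a trended prior, two-sided, with Benjamini-Hochberg adjustment over 17198 genes; fold changes on this scale understate those of low genes. The fit was also run on simulated data for the control gapmer comparison. There it recovered 65% of genes changed by 0.5 and 92% of genes changed by 1 (log2). Whether these rates hold for the measured libraries was not tested. An exact permutation of 2 against 2 libraries could not go below p = 0.333. Tables used Python 3.11.15 and pandas 2.3.3. Promoter sequences are RefSeq's.

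Named genes were 8 fixed genes, the 12 largest rises and falls of at least 5 FPKM without overlap, and up to 4 members of each of 25 lists. The 5 highest and lowest differences per comparison were named too. Other names are said to be chosen after their values were seen. Further members of a list are given to complete its count or as examples. The members and lists were chosen with earlier results of these data known. Alternatives covered the pseudocount, filter, scaling, libraries fitted, replicate block and each library left out. Some genes covered by these rules are not reported here.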

Additional observations from a re-analysis of the deposited data

Results flagged for a closer look

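Each gene here had a cisplatin effect with control gapmer that differed from the effect in another setting by limma's test of the difference, and values are log2 differences, control gapmer minus the other setting. Against untransfected A549/cDDP the lowest were FOS at -3.26, ENSG00000276924 at -2.23, MIRLET7D at -1.38, SPOCK1 at -0.932 and CLDN14-AS1 at -0.926. The highest were TRIM31 at 1.52, LCN2 at 1.21, ENSG00000257181 at 1.09, AGFG2 at 1.01 and GRIN2C at 0.971. MIRLET7D shares 87 bp with AL158152.2 on the same strand, so their reads are uncertain, and ENSG00000276924 has no gene model in GENCODE 29. With no filter on low values, the differences of ENSG00000276924 and ENSG00000257181 did not pass (limma adjusted p = 0.142 and 0.112).

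Against the SCAT7 gapmer the lowest were ENSG00000272149 at -1.21, KIF20A at -1.14, PIF1 at -0.946, GTSE1 at -0.93 and CDKN2C at -0.852. The highest were GRIN2C at 1.08, GDF15 at 0.927, VWCE at 0.902, ZBTB46-AS2 at 0.902 and FAUP4 at 0.871.

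Against A549, where line and transfection differ together, the lowest were ENSG00000278597 at -12.1, SLC52A1 at -5.86, NECTIN4 at -5.06, CEACAM1 at -4.98 and LCE1F at -4.85. The highest were IL11 at 3.08, EXOC4 at 2.97, WDR76 at 2.93, FAM111B at 2.89 and SLIT3 at 2.77. ENSG00000278597 had 5.28 FPKM and 0 in the cisplatin libraries with control gapmer, against 342 and 251 in solvent, so its replicates in cisplatin differ.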

How the results depend on the processing

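The 435 genes changed with control gapmer became 270 when only the libraries compared were fitted and 137 to 179 with 1 control gapmer library left out. The 324 genes whose effect differed from untransfected cells became 110 to 131 with 1 library left out. The 160 that differed from the SCAT7 gapmer became 262 with no filter, 10 with only the libraries compared and 45 to 70 with 1 library left out. The 7789 that differed from A549 ranged from 6792 to 8434 over all alternatives. Leaving out a library leaves its group with 1 sample, assumed to vary like the other groups; otherwise the cause was not tested. Median ratio scaling gave 361 for control gapmer, 52.6% of them higher against 66.2% in the fit reported. Genes of 300 kb and over that fell numbered 54, 32 with the replicate block and 30 with no filter, and the mitosis genes that fell numbered 12, 6 with no filter and 21 with only the libraries compared. No called effect of a named gene changed direction.

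Same-numbered control gapmer libraries showed no shared shift: their deviations correlated across genes at 0.00956. With 2 libraries per group this cannot show whether the libraries were paired. With the replicate block 364 genes passed for control gapmer, 299 for the difference from untransfected cells, 109 for that from the SCAT7 gapmer and 7769 for that from A549. Among 118 effects of named genes the block kept 106 on their side of the threshold.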
